A study of Mus musculus with 69 samples.

Results

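The regions described here are H3K27me3 peaks that also carry Ring1B in wild-type (WT) mouse ES cells and embryoid bodies. They were chosen by overlap: each of the 11884 peaks in the deposited WT H3K27me3 set was kept if it shared at least 1 bp with a peak of the deposited WT Ring1B set. This gave 523 peaks, or 4.4% of the H3K27me3 peaks, and the other 11361 served as the comparison set. Both sets were deposited as 1 merged list over ES cells, day 4 and day 8 embryoid bodies, so a peak has no stage and no replicate of its own. H3K27me3 and Ring1B are what selected the peaks. Their overlap is therefore a description, and tests are given on Suz12 lists of single libraries and on RNA, which the choice did not use.

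H3K27me3 is trimethylation of lysine 27 of histone H3, written by Polycomb repressive complex PRC2 through its catalytic subunit Ezh2, with Suz12 as a scaffold subunit. Ring1B (gene Rnf2) is the catalytic E3 ligase of the other Polycomb complex, PRC1, which ubiquitylates histone H2A and compacts chromatin. In ES cells both complexes are known to sit together on CpG-rich starts of developmental regulators, whose transcription stays low until a lineage needs them.

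The cells were CJ7 mouse ES cells, grown on a fibroblast feeder layer with LIF and serum, and embryoid bodies made from them in hanging drops without LIF. RNA-seq compared EZH2-mutant with WT cultures, 3 libraries each, as ES cells (day 0) and as embryoid bodies of day 4 and day 8. It also compared GSK343 with DMSO, 2 libraries each at the same stages. GSK343 inhibits the methyltransferase activity of EZH2. Cultures had it at 4 µM, starting 3 days ahead of differentiation and lasting to collection, or as much DMSO as vehicle. A further comparison took embryoid bodies back into ES medium for 5 days (collected at day 14), in which DMSO-treated embryoid bodies received GSK343 or DMSO, 3 libraries each. Suz12 CUT&RUN, which maps a protein by antibody-targeted nuclease cutting in permeable cells, was deposited as peak lists of 6 mutant libraries (2 per stage) and 3 WT libraries (1 per stage). The labels do not say what the EZH2 mutation is, nor that libraries of 1 group came from separate cultures, so p-values measure the spread between these libraries, which may be technical.

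Sequences at 5 of the peaks show what their gene starts look like. Each runs from 250 bases before to 50 bases after a gene start, 5′ to 3′ on the strand of the gene, from RefSeq on GRCm38.p6 (the mm10 build), with each CG dinucleotide in capitals. Hand2 (chr8:57320733-57321032, plus strand), Msx2 (chr13:53472731-53473030, minus strand), Foxd3 (chr4:99656049-99656348, plus strand) and Barx1 (chr13:48662786-48663085, plus strand) encode transcription factors that the RNA results turn on. Hba-x (chr11:32276350-32276649, plus strand), the embryonic alpha-like globin, is shown because its start looks different.
Hand2: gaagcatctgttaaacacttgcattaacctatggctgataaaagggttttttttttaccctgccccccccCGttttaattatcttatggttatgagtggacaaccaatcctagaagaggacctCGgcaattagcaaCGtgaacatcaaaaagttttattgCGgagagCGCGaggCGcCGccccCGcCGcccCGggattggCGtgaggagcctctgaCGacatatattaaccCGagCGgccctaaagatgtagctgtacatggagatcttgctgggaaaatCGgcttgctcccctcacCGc
Msx2: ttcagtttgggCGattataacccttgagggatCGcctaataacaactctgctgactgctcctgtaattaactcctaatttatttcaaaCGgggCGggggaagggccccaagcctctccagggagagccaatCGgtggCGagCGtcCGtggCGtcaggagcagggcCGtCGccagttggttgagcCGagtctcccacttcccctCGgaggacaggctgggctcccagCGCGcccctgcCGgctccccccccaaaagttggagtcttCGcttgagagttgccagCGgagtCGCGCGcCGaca
Foxd3: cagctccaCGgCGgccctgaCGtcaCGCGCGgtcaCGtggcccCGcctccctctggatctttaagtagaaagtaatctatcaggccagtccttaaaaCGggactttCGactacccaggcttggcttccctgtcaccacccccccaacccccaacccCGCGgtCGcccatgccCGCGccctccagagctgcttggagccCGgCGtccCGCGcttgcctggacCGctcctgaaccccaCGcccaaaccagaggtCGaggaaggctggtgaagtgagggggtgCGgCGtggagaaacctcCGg
Barx1: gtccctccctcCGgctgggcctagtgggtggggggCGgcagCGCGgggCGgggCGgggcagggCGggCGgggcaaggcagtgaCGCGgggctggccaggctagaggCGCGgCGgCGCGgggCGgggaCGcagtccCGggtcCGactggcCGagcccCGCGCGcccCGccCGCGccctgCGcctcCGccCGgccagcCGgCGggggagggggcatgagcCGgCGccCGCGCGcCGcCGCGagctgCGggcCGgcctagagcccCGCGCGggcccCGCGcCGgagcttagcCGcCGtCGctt
Hba-x: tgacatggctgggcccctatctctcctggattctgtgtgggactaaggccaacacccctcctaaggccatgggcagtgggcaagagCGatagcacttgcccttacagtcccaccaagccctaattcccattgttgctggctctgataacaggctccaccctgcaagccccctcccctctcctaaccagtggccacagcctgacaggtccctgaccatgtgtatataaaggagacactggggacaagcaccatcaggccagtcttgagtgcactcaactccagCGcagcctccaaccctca

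The Barx1 start held 50 CG in these 300 bases, the Foxd3 start 25, the Msx2 start 22 and the Hand2 start 17, while the Hba-x start held 2. Over the 773 RefSeq starts inside peaks with Ring1B the median was 18 CG per 300 bases, against 15 over 4798 starts inside H3K27me3 peaks without Ring1B and 6 over 27280 starts outside H3K27me3. The ratio of observed to expected CG had a median of 0.681 in the peaks with Ring1B, against 0.588 in the peaks without Ring1B. By a GC content of at least 50% and a ratio of at least 0.6, 56.3% of the starts in peaks with Ring1B were CpG-rich, 46.8% of those in peaks without Ring1B and 33.5% of all 32851 starts. No CG at all was found in 0.776% of the starts in peaks with Ring1B and 5.43% of all starts. CpG content is a description of these windows, read on 1 strand since CG is its own reverse complement.

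Peaks with Ring1B were long. Their median length was 20780 bp (range 1586 to 262681), against 4542 bp (1501 to 210197) without Ring1B. Of the peaks with Ring1B, 92 (17.6%) reached 40 kb, against 73 (0.643%) of the peaks without it, and they held 14.7% of all base pairs under H3K27me3. A long peak has more chance to touch a Ring1B peak, so length is partly fixed by the way the peaks were chosen. Most of them, 502, held 1 Ring1B peak, 19 held 2 and 2 held 3, and 544 of the 782 deposited Ring1B peaks lay at them. Ring1B peaks covered between 0.721% and 100% of a member's length, with a median of 40.3%.

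**Figure D1:**
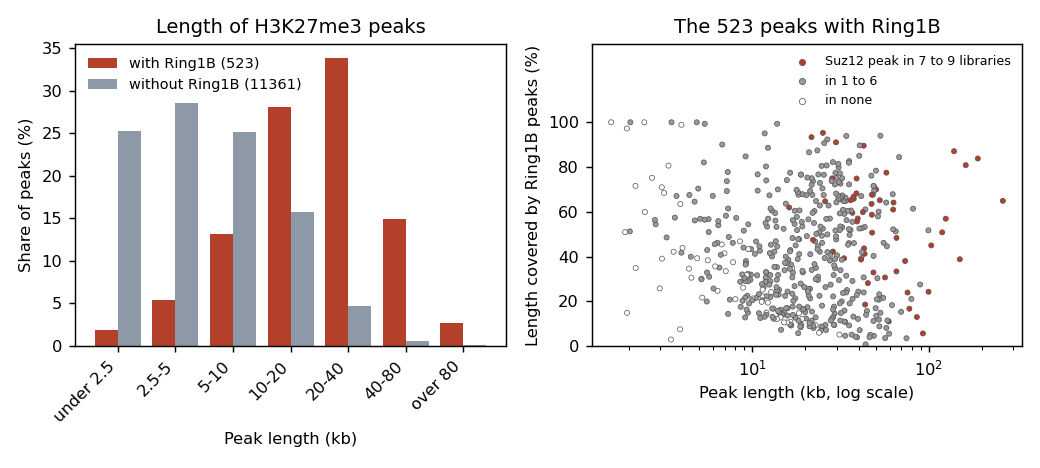
Left, share of H3K27me3 peaks (y axis, percent) in each length class (x axis, kb) for peaks with Ring1B and peaks without it. Right, each of the 523 peaks with Ring1B by its length (log axis, kb) and the share of it covered by Ring1B peaks (percent), coloured by the number of Suz12 libraries with a peak there; the Hox clusters lie at the far right and the peaks with no Suz12 peak lie mostly among the short ones.

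The longest of these peaks lay over the Hox clusters. The Hoxc cluster was a single peak of 262681 bp (chr15:102894913-103157594), the Hoxa cluster with Evx1 one of 189464 bp (chr6:52139799-52329263), Hoxb1 to Hoxb9 one of 161897 bp (chr11:96223854-96385751) and the Hoxd cluster with Evx2 one of 138927 bp (chr2:74642954-74781881). Ring1B covered 64.9%, 83.8%, 80.8% and 87.1% of these in the order given. Hox genes encode homeodomain factors that set identity along the body axis. Among them ranked a peak of 149756 bp at Rhcg (chr7:79486525-79636281), an ammonium transporter gene. Further long peaks lay at Nfix and Lyl1 (124720 bp, chr8:84699411-84824131), at Six3 and Six2 (103218 bp, chr17:85598269-85701487), at Lmx1b (99597 bp, chr2:33554250-33653847) and at Calcoco2, Ttll6 and Hoxb13 (99440 bp, chr11:96118485-96217925).

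Genes of the developmental regulator families lay at these peaks in numbers. A protein-coding gene lay within 1 kb of 492 peaks with Ring1B (94.1%), 711 genes in all, against 61.0% of the peaks without Ring1B. All 39 Hox genes lay there, as did 81 of 124 other homeobox genes, 32 of 62 T-box, forkhead, GATA and Sox genes, 44 of 99 bHLH and zinc finger regulators and 24 of 79 signalling ligands and antagonists, while 711 of all 21900 coding genes (3.25%) did. At H3K27me3 peaks without Ring1B lay no Hox gene, 42 of the other homeobox genes, 25 T-box, forkhead, GATA and Sox genes, 49 bHLH and zinc finger regulators, 49 signalling genes and 5745 coding genes (26.2%), leaving out genes that also lay at a peak with Ring1B. Genes of PRC1 subunits at these peaks included Bmi1, Cbx2 and Cbx8, of which the Cbx proteins bind H3K27me3. None of 7 cell cycle inhibitors did, and Cdkn2a, a tumour suppressor locus often used as a Polycomb target, lay at a peak without Ring1B, as did T, Foxa2, Nkx2-5, En2, Bmp4 and Pou5f1. At least 1 listed gene lay at 175 of the peaks with Ring1B (33.5%) and at 2.17% of those without. Among the 50 longest it was 36 peaks and among the 50 shortest 1. The lists were put together with earlier results of these data known, and no test was run on them.

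The edge of the selection was soft. The 3 peaks with the smallest overlap shared 100 bp with Ring1B (at Tiam1, chr16:90139667-90143128), 290 bp (at Ercc6, chr14:32510983-32512937) and 292 bp (chr5:24843845-24847745, no gene within 1 kb). The 3 nearest peaks left out stood 102 bp (at Rab5c and Kcnh4, chr11:100739086-100754374), 141 bp (at Meis1, chr11:18880664-18882471) and 181 bp (chr7:82862353-82865536) from a Ring1B peak. The peak over the alpha-globin genes with Hba-x (chr11:32268306-32312159, 43853 bp) was inside with Ring1B on 0.721% of it, the lowest share of all 523.

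PRC2 subunits were mapped at part of these peaks. The merged WT Ezh2 set overlapped 218 (41.7%) of the peaks with Ring1B and 0.792% of those without. The merged WT Suz12 set overlapped 293 (56.0%) and 0.959%. Both sets met at 191 peaks and neither at 203. Of the 491 merged Suz12 peaks, 371 (75.6%) had the same ends as a peak of the WT day 8 library, so the merged set and that library are not separate evidence.

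In the 9 single Suz12 libraries, peaks with Ring1B carried a Suz12 peak more often than the other H3K27me3 peaks. Most Suz12 peaks of each list lay outside H3K27me3 peaks, however. From 1.87% (WT ES cells) to 13.6% (mutant day 8 library 2) of a list lay at peaks with Ring1B. At H3K27me3 peaks without Ring1B lay 1.86% (WT ES cells) to 29.9% (WT day 8). What the Suz12 peaks elsewhere are was not tested. In ES cells the share was 53.7% and 22.8% in the 2 mutant libraries and 20.8% in the WT library. At day 4 it was 24.9% and 29.3% in the mutant libraries and 6.12% in the WT library. At day 8 it was 20.7% and 74.6% in the mutant libraries and 80.5% in the WT library. For peaks without Ring1B the share ran from 0.555% to 13.9%. The share was 37.0% ± 26.2 in peaks with Ring1B and 4.8% ± 4.35 in peaks without it (SD over 9 libraries). It was higher at peaks with Ring1B in 9 of 9 libraries, by 32.2 percentage points on average (two-sided exact sign-flip permutation test over libraries, p = 0.003906, the smallest 9 libraries allow). When the peaks without Ring1B were weighted to the same lengths, their share was 15.0% ± 13.4 and the difference was 22.1 points, with the same p.

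**Figure D2:**
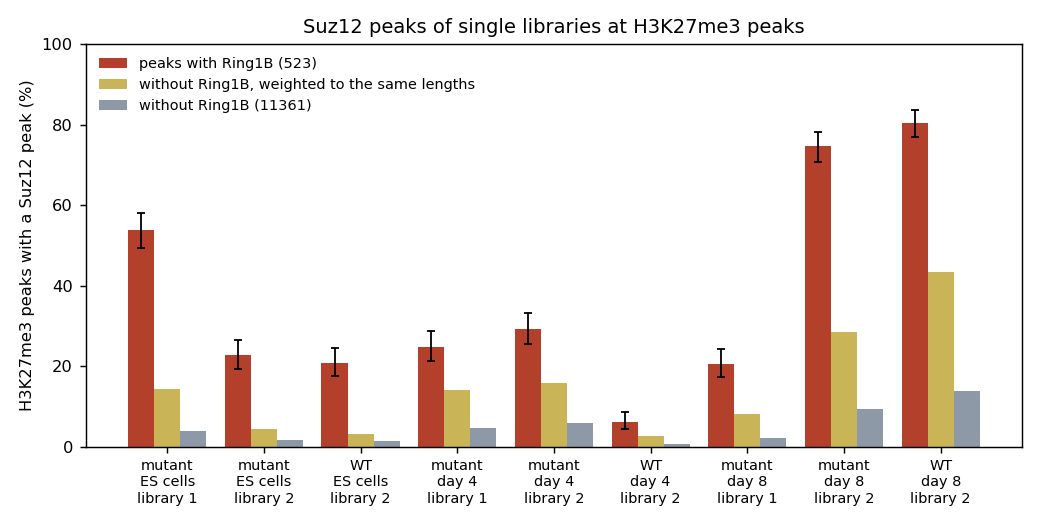
Share of H3K27me3 peaks (y axis, percent) with a Suz12 peak in each of 9 libraries (x axis), for peaks with Ring1B, for peaks without Ring1B weighted to the same lengths, and for peaks without Ring1B; bars on the first are 95% Wilson intervals over 523 peaks. The first bar is the tallest in every library, and the 2 replicate mutant libraries differ from each other at ES cells (53.7% and 22.8%) and at day 8 (20.7% and 74.6%).

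No difference between mutant and WT could be seen against the spread of these libraries. The share of peaks with Ring1B that carried Suz12 was 37.6% ± 21.8 over 6 mutant libraries and 35.8% ± 39.4 over 3 WT libraries (SD). With the label permuted within a stage the difference of 1.82 points had p = 0.963 (two-sided exact permutation test, 27 arrangements, smallest p 0.03704). The difference is a mean over stages, and each stage has 1 WT library, so leaving that library out removes the stage with its mutant libraries. Without day 4 it was -7.75 points, without ES cells -5.98 and without day 8 19.2. It also turned negative without mutant ES library 1 (-3.35) or mutant day 8 library 2 (-7.17). The lists are of unlike length, from 1000 peaks in the WT day 4 library to 8810 in mutant day 4 library 2. The narrowest peak was 1001 bp in each WT list and 487 or 501 bp in the mutant lists. The shortest list had the lowest share, 6.12%, but the longest had 29.25%, and a list of 6511 peaks (WT day 8) had 80.5%. The part of list length and peak width in the share was not tested.

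Suz12 and merged Ezh2 peaks were found at a larger share of the longer peaks, and merged Ezh2 also at a larger share of those with more Ring1B cover. Merged Suz12 overlapped 72.6% of the part with the most Ring1B cover and 35.4% of the part with the least. The Suz12 share was also larger with the most cover in every ES cell and day 8 library and in the WT day 4 library. In the WT day 8 library it was 89.1% against 72.6%. The mutant day 4 libraries went the other way, with 25.1% against 25.7% in library 1 and 26.3% against 33.1% in library 2. A Suz12 peak was found in all 9 libraries at 9 peaks: the Hoxc, Hoxa and Hoxb clusters, Nfix with Lyl1, Six3 with Six2, Tbx1 (chr16:18564835-18640583), Lhx2 (chr2:38321528-38387119), Lhx5 (chr5:120388617-120454162) and Lbx1 (chr19:45215514-45254489). All 9 also overlapped merged Ezh2 and Suz12. At 58 peaks (11.1%) no library had one. With the peaks cut into 3 equal parts by length, 97.1% of the longest part had Suz12 in the WT day 8 library, against 56.3% of the shortest part, and 76.6% against 10.3% overlapped merged Ezh2. Cut likewise by Ring1B cover, 62.3% of the part with the most overlapped merged Ezh2, against 20.0% of the part with the least. At day 8, 360 peaks had Suz12 in both replicate 2 libraries, 30 in the mutant one alone and 61 in the WT one alone. At day 4 it was 22 in both, 131 in the mutant one alone and 10 in the WT one alone, and in ES cells 62, 57 and 47. The 2 mutant day 8 libraries shared 103 peaks, with 5 in library 1 alone and 287 in library 2 alone.

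RNA was read as RPKM (reads scaled to gene length and library size), and a gene was assigned to a peak where its span came within 1 kb. Of the 1162 RefSeq genes at these peaks, coding or not, 542 were listed in the mutant and WT table and 495 passed a filter of 0.5 RPKM, met in at least the number of libraries of the smallest group. For GSK343 and DMSO 552 were listed and 506 passed, and for the replated cells 546 and 517. A gene can pass through the group where it is high, so the counts below describe the genes that passed and not all members. Genes at peaks with Ring1B were expressed at a low level in ES cells. Their median was 0.775 to 1.08 RPKM in the mutant and 1.07 to 1.12 RPKM in the WT libraries, against 1.20 to 1.44 RPKM in mutant and 1.46 to 1.53 RPKM in WT ES cells at H3K27me3 peaks without Ring1B, and 6.14 to 6.42 RPKM over all 14772 listed genes in WT ES cells. In bulk samples fewer cells of a type and less RNA per cell cannot be told apart.

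**Figure D3:**
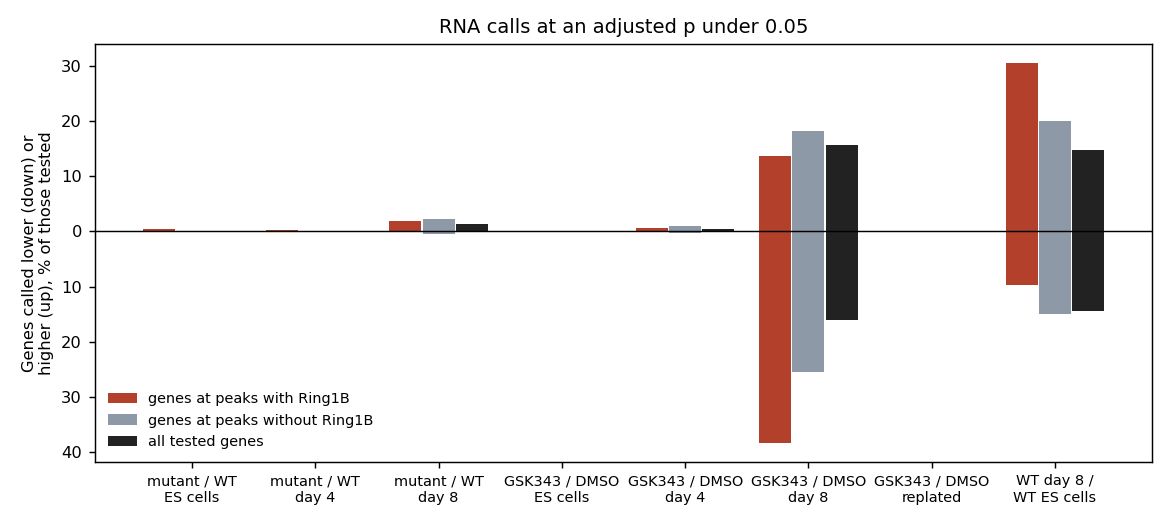
Share of tested genes (percent) called higher (upward) or lower (downward) at an adjusted p under 0.05 in 8 comparisons (x axis), for genes at peaks with Ring1B, genes at H3K27me3 peaks without Ring1B and all tested genes. At day 8 under GSK343, 38.3% of the genes at peaks with Ring1B were lower, against 16.0% of all tested genes; in WT day 8 embryoid bodies over ES cells, 30.5% were higher, against 14.7%.

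Differentiation of WT cells raised many of these genes. Between WT day 8 embryoid bodies and WT ES cells, 151 of 495 genes at peaks with Ring1B were higher and 48 lower at an adjusted p under 0.05 (limma on log2(RPKM + 1), Benjamini-Hochberg over 14180 genes). Of all tested genes 14.7% were higher and 14.4% lower, while of the genes at peaks with Ring1B 30.5% were higher and 9.7% lower. At H3K27me3 peaks without Ring1B the shares were 20.0% and 14.9%. The median log2 fold change was 0.39 at peaks with Ring1B and 0.01 over all tested genes. Of the 10 Hox genes tested 4 were higher and 1 lower, of 33 other homeobox genes 12 and 3, of 18 T-box, forkhead, GATA and Sox genes 9 and 1, of 24 bHLH and zinc finger regulators 8 and 2, and of 17 signalling genes 6 and 2.

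Library 3 of WT day 8 stood apart from the other 2 in these genes. Gata6, a GATA factor of endoderm and heart (chr18:11043882-11068596, Ring1B on 80.5% of it), had 45.6, 45.5 and 1.68 RPKM in WT day 8 embryoid bodies and 1.14, 0.777 and 0.54 RPKM in WT ES cells. The lowest day 8 library was just above the highest ES library, and the log2 fold change was 3.32 (SE 0.86, limma adjusted p = 0.0109). Without day 8 library 1 or library 2 Gata6, Prdm6 and Fgfr3 were no longer called. Irx3, an Iroquois homeobox gene, had 17.5, 20.8 and 3.45 RPKM at day 8 against 0.198, 0.219 and 0.562 RPKM in ES cells (log2 fold change 3.21, SE 0.64, limma adjusted p = 0.00273), and Prdm6, a SET-domain gene of smooth muscle, 23.9, 27 and 0.107 RPKM against 0.06, 0 and 0.017 RPKM (3.16, SE 0.89, adjusted p = 0.0166). Gata4 was higher too, by 2.76 (SE 0.59, limma adjusted p = 0.00402), and so was Sox17, an endoderm factor, by 1.41 (SE 0.33, adjusted p = 0.00674). Fgfr3, a fibroblast growth factor receptor, and Gprc5c, an orphan G protein-coupled receptor, complete the 5 largest rises among genes whose day 8 and ES libraries did not overlap, at 3.05 and 3.06. Hba-x (4.65), Igf2 (4.31), Hand2 (4.24) and Hand1 (4.13) had larger called rises and are named after their values were seen. Eomes, Wnt3, Lhx1 and Barx1 were not called, with differences of -0.12, 1.0, 0.56 and 0.01.

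Among the genes lower at WT day 8 than in ES cells, Ntn1 had the largest difference. Ntn1, the axon guidance ligand netrin (chr11:68371771-68408654), had 1.34, 1.29 and 2.25 RPKM at day 8 and 34.3, 18.6 and 22.0 RPKM in ES cells, with no overlap (log2 fold change -3.28, SE 0.57, limma adjusted p = 0.00131). Grem1, a BMP antagonist, had 0.107, 0.146 and 0.218 RPKM at day 8 against 2.51, 1.64 and 42.8 RPKM in ES cells, so that 1 ES library held most of the signal. Tfap2c and Nkx6-2 fell by 2.24 and 1.95. Pluripotency markers moved with this comparison, 13 of 14 lower with a summed level of 75.8 to 799 RPKM at day 8 and 1570 to 2450 RPKM in ES cells. Cardiac (5 of 8), endoderm (8 of 12) and blood or endothelial markers (6 of 9) were higher. Of the listed markers, 3 endoderm, 2 blood or endothelial and 1 pluripotency gene lay at peaks with Ring1B themselves. Feeder fibroblast markers summed to 10.6 to 349 RPKM at day 8 and 30.6 to 495 RPKM in ES cells. Their part in the result was not tested. Without day 8 library 1 the counts were 66 higher and 22 lower, without library 2 they were 67 and 26, and without library 3 they were 186 and 56. Leaving out WT ES library 1 gave 85 and 24.

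GSK343 changed few of these genes before day 8. In ES cells it changed none of 506, and 0.0% of the 14016 genes tested. At an unadjusted p under 0.05 there were 55 of 506 and 669 of 14016 (limma), and without GSK343 ES library 2 the fit called 1 gene at these peaks higher. At day 4, 3 of 506 were higher and none lower, against 0.628% of all tested genes in either direction. Pdgfa, a growth factor that signals to mesenchyme (chr5:138987236-139002280), had 8.39 and 7.17 RPKM with GSK343 against 1.65 and 2.27 RPKM with DMSO (log2 fold change 1.57, SE 0.26, limma adjusted p = 0.03). Sfmbt2, a Polycomb group gene needed in the mouse trophoblast (chr2:10324018-10393687), had 5.27 and 4.05 RPKM against 1.49 and 1.3 RPKM (1.24, SE 0.19, limma adjusted p = 0.0232). Cenpv, a centromere protein gene (chr11:62535301-62541648), had 84.5 and 112 RPKM against 49.4 and 52.1 RPKM (0.93, SE 0.15, limma adjusted p = 0.03). The GSK343 and DMSO libraries did not overlap for any of the 3, and without any 1 of the 4 day 4 libraries none of them was called. Pluripotency markers also stood higher with GSK343 at day 4, 6 of 14 called, with sums of 1760 to 1920 RPKM against 1190 to 1250 RPKM. Same-numbered GSK343 and DMSO libraries of day 4 went together, with a correlation of 0.625. With a block for the replicate number over all stages, 19 of 506 genes at peaks with Ring1B were higher (3.75%) and 2 lower (0.395%). Of all tested genes 1.51% were higher and 0.421% lower in that blocked fit.

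At day 8 GSK343 lowered a large part of them. Of 506 genes at peaks with Ring1B, 194 (38.3%) were lower and 69 (13.6%) higher with GSK343 than with DMSO. Of all 14016 tested genes 16.0% were lower and 15.6% higher, and at H3K27me3 peaks without Ring1B 25.4% and 18.1%. The median log2 fold change was -0.27 at peaks with Ring1B, -0.03 at peaks without it and 0.00 over all tested genes. Taking all 552 listed genes without a filter on low values gave 198 lower and 71 higher. Leaving out any 1 of the 4 libraries gave between 166 and 199 lower and between 43 and 68 higher, the lowest numbers of higher genes being 45 and 43 when DMSO library 1 or library 2 was dropped.

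The 5 largest falls among genes named by a fixed rule were in Nrp1, Hand2, Hba-x, Hand1 and Prdm6. Hand2, a bHLH factor of heart and limb whose peak (chr8:57306518-57359709) had Ring1B on 94.0% of its length, had 0.264 and 0.0482 RPKM with GSK343 and 42.2 and 50.3 RPKM with DMSO (log2 fold change -5.35, SE 0.14, limma adjusted p = 1.49e-08). Hand1, its paralog (chr11:57824199-57846084), had 0.958 and 0.852 RPKM with GSK343 and 55.7 and 62.6 RPKM with DMSO (-4.98, SE 0.20, adjusted p = 1.52e-07 by limma). For both genes the DMSO libraries lay far above the GSK343 libraries. Nrp1, a co-receptor for VEGF and semaphorins (chr8:128353676-128367441), had 1.67 and 0.319 RPKM against 101 and 136 RPKM (-5.98, SE 0.33, limma adjusted p = 1.08e-06). Prdm6 had 0.524 and 0.0414 RPKM against 36.4 and 29.5 RPKM, a log2 fold change of -4.74. Hba-x, the globin gene with the sparse CG content shown above, was listed at 0 in 1 GSK343 library and at 0.0898 RPKM in the other, against 16.9 and 65.1 RPKM with DMSO.

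Most Hox genes that passed the filter were lower. Of 15 Hox genes tested 11 were lower and none higher. Hoxb2 had 0.14 and 0.0992 RPKM with GSK343 and 8.93 and 10.6 RPKM with DMSO (log2 fold change -3.26, SE 0.17, limma adjusted p = 9.32e-07). Hoxb3, Hoxd8 and Hoxd9 fell by 2.47, 2.15 and 1.79. Of 34 other homeobox genes 17 were lower and 5 higher. Msx2, a homeobox factor downstream of BMP (chr13:53446654-53488400), had 1.11 and 0.673 RPKM with GSK343 against 38.6 and 35.9 RPKM with DMSO, a log2 fold change of -4.35 (SE 0.19, limma adjusted p = 2.71e-07). Msx1, Pitx1 and Irx3 fell by 3.47, 3.41 and 2.86. Hoxd13 and Hoxb13 stayed under 0.5 RPKM in all 4 libraries and were not called.

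The other lists differed in their counts. Of 18 T-box, forkhead, GATA and Sox genes 12 were lower and 2 higher, among them Tbx2 (-3.98), Foxf1 (-3.51), Gata6 (-3.39, SE 0.43, limma adjusted p = 0.000237), Gata4 (-2.22) and Sox17 (-1.76). Gata6 had 4.41 and 0.624 RPKM with GSK343 and 29.8 and 30.2 RPKM with DMSO. Of 23 bHLH and zinc finger regulators 8 were lower and 6 higher, against 15 lower and 7 higher of the 31 on that list away from these peaks. Of 19 signalling ligands and antagonists 12 were lower and none higher, with Wnt5a (-2.62), the BMP antagonist Nog (-2.34), Wnt3 (-1.68), Shh (-1.27) and Wnt9b (-0.99). Among PRC1 subunit genes, Cbx8 had 1.40 and 1.59 RPKM with GSK343 against 8.48 and 8.60 RPKM with DMSO (-1.94), and Cbx2 was lower by a log2 fold change of -0.54 (limma adjusted p = 0.0437). Over the 113 listed regulators at these peaks 63 were lower, 13 higher and the median was -0.72. Over the 148 listed regulators tested away from these peaks 57 were lower, 34 higher and the median was -0.15. Over the 393 other genes at these peaks 131 were lower, 56 higher and the median was -0.18.

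The largest rise was in Foxd3. Foxd3 (chr4:99644514-99666250), a forkhead factor of pluripotent cells and neural crest, had 23.4 and 10.4 RPKM with GSK343 and 0.616 and 0.216 RPKM with DMSO (log2 fold change 3.57, SE 0.36, limma adjusted p = 5.82e-05). Otx2 (chr14:48650642-48681339), a homeobox factor of epiblast and forebrain, had 65.1 and 51.5 RPKM against 8.00 and 7.52 RPKM (2.75, SE 0.30, limma adjusted p = 0.000103). Cenpv had 83.2 and 96.8 RPKM against 10.6 and 11 RPKM (2.94, SE 0.15, limma adjusted p = 8.53e-07). All 3 lay above DMSO in both libraries. Dmrt1, a DM-domain factor of the germ line, rose by 2.25 and Calcoco2, an autophagy receptor gene, by 2.31. In Calcoco2 the GSK343 libraries were far apart, at 2.46 and 19.0 RPKM, and the call was lost without either DMSO library. Pax6 rose by 0.51 (limma adjusted p = 0.017) while all its libraries stayed under 1 RPKM.

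With DMSO, Foxd3 and Otx2 were highest at day 4, while Otx2 with GSK343 was as high at day 8 as at day 4. Otx2 had 7.80 and 17.0 RPKM in GSK343 ES cells, 47.7 and 61.0 RPKM at day 4 and 65.1 and 51.5 RPKM at day 8. With DMSO it had 6.95 and 10.8 RPKM in ES cells, 61.3 and 60.5 RPKM at day 4 and 8.00 and 7.52 RPKM at day 8. Foxd3 had 28.4 and 41.2 RPKM with GSK343 and 37.8 and 39.2 RPKM with DMSO at day 4, so the treatments overlapped there and were apart at day 8.

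**Figure D4:**
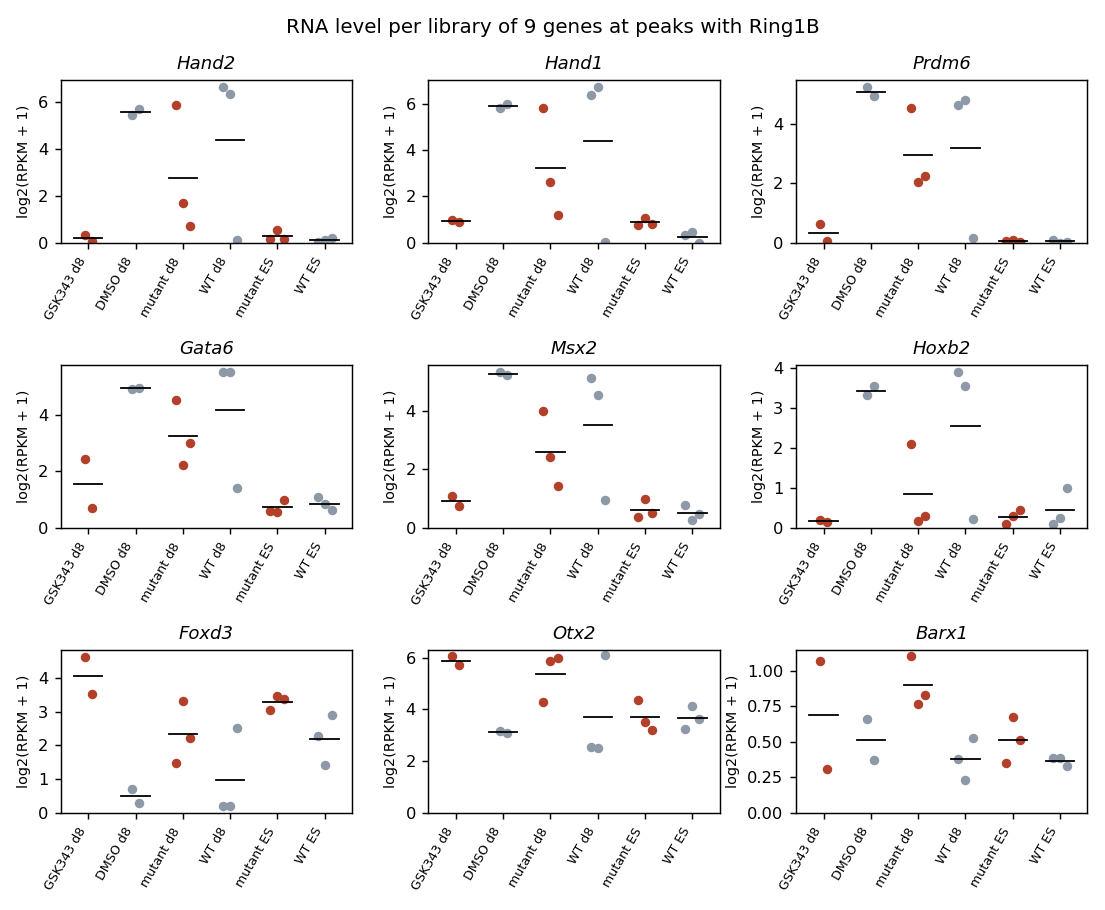
RNA level of 9 genes at peaks with Ring1B, as log2(RPKM + 1) on the y axis, 1 point per library and a line at the mean, in GSK343 and DMSO day 8 embryoid bodies, mutant and WT day 8 embryoid bodies, and mutant and WT ES cells. Hand2, Hand1, Prdm6, Gata6, Msx2 and Hoxb2 are high in both DMSO and in 2 of 3 WT day 8 libraries; WT library 3 lies near the ES cells in these 6 genes, and at day 8 Foxd3 and Otx2 are higher in that library than in the other WT libraries.

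Markers of other cell types moved with the day 8 result. The lists are not fully separate from it. They hold 3 endoderm, 2 blood or endothelial, 2 neural and 1 pluripotency gene at peaks with Ring1B. Pluripotency markers were higher with GSK343, 12 of 14, with sums of 1640 to 2290 RPKM against 158 to 200 RPKM with DMSO. Cardiac markers were lower, 7 of 8, with sums of 12.8 to 24.6 RPKM against 120 to 127 RPKM. Blood and endothelial markers (8 of 9 lower, 20.8 to 53.1 against 227 to 669 RPKM) and endoderm markers (7 of 11 lower, 5.71 to 38.4 against 145 to 212 RPKM) were lower as well. Fibroblast markers were lower in 6 of 11, with sums of 6.57 to 16.1 RPKM with GSK343 against 79.6 to 201 RPKM with DMSO. Of 5 neural markers 3 were higher. No marker was at 0 in all 4 libraries, and the part of these cell types in the result was not tested.

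The effect of GSK343 differed between day 8 and day 4. With the difference between the 2 effects tested in the same fit, 144 of 506 genes at peaks with Ring1B were more negative at day 8 and 24 more positive, against 6.51% and 5.68% of all tested genes. The difference in log2 fold change was -5.51 for Hand2 (SE 0.20, limma adjusted p = 4.75e-07), -6.09 for Nrp1 and -5.40 for Hand1. It was 3.73 for Foxd3 (SE 0.50, limma adjusted p = 0.00137), 2.92 for Otx2 and 2.02 for Cenpv. For Calcoco2 it was 1.69 (SE 0.84) and was not called, at a limma adjusted p of 0.234. Leaving out any 1 of the 8 libraries gave between 103 and 157 more negative and between 7 and 40 more positive. The count of more positive genes was 7 without DMSO day 4 library 2, 12 without DMSO day 4 library 1, 9 without GSK343 day 4 library 1 or DMSO day 8 library 2, and 40 without GSK343 day 8 library 2.

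Of the genes lowered by GSK343 at day 8, 56.0% rose in WT differentiation. These comparisons share no library. Of 481 genes at peaks with Ring1B that were tested in both, 182 were lower with GSK343 and 147 higher in WT day 8 than in WT ES cells, and 102 genes were in both. That is 56.0% of the GSK343 falls, where 30.6% of the 481 rose in WT, and 69.4% of the WT rises. No gene was lower in both comparisons and 4 were higher in both. Of 69 genes higher with GSK343, 23 (33.3%) fell in WT differentiation, where 9.98% of the 481 fell. At H3K27me3 peaks without Ring1B it was 51.8%, where 15.3% of the genes tested in both fell. Over all genes it was 52.6%, where 14.6% fell, and these differences were not tested. Over all 13792 genes tested in both, the share of GSK343 falls that rose in WT was 51.8%, where 14.7% of those tested rose. At H3K27me3 peaks without Ring1B it was 50.3%, where 20.1% rose, so this pattern was not confined to the peaks with Ring1B.

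**Figure D5:**
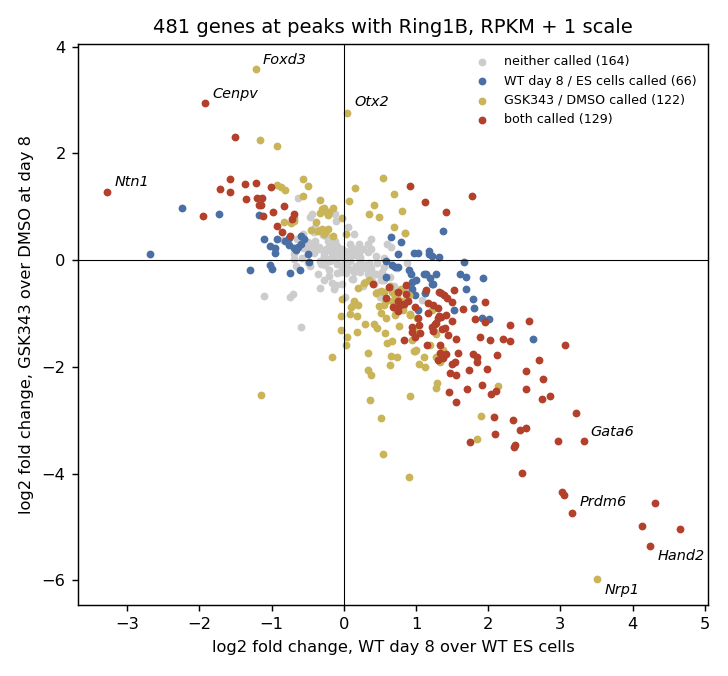
Each of 481 genes at peaks with Ring1B by its log2 fold change on the RPKM + 1 scale in WT day 8 embryoid bodies over WT ES cells (x axis) and in GSK343 over DMSO at day 8 (y axis), coloured by which comparison called it. The 102 genes that rose in WT and were lower with GSK343 fill the lower right, with Hand2, Prdm6 and Gata6 at its end, and no gene called in both lies at the lower left.

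Falls with GSK343 were spread over the peaks. Over the same 3 parts by length, 42.0% were lower at the longest peaks (79 of 188), 37.3% at the middle and 35.8% at the shortest. By Ring1B cover the shares were 40.2% in the highest part, 39.7% in the middle and 35.8% in the lowest. At peaks that overlapped merged Suz12 42.7% were lower (119 of 279), against 33.6% (77 of 229) at peaks that did not. A gene at 2 peaks counts in both parts of a split, and these differences were not tested.

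Few of these genes were called between mutant and WT. Ezh2 itself was lower in the libraries labelled mutant, with 23.6, 20.7 and 24.4 RPKM in mutant ES cells against 47.6, 62.5 and 37.2 RPKM in WT ES cells (log2 fold change -1.04, SE 0.17, limma adjusted p = 0.0372), and by -0.95 at day 8 (limma adjusted p = 0.0185). At day 4 Ezh2 was not called. In ES cells 2 of 495 genes at peaks with Ring1B were higher and none lower, against 0.0917% of all tested genes in either direction. Mllt10, which encodes a cofactor of the histone methyltransferase DOT1L (chr2:18022798-18063143), had 11.2, 9.50 and 10.7 RPKM in mutant against 5.09, 5.12 and 3.93 RPKM in WT ES cells (log2 fold change 1.01, SE 0.17, limma adjusted p = 0.041). The other was A930004D18Rik, at 1.18, which lay at the same peak, so the 2 calls come from 1 region. Mllt10 was no longer called when any 1 of the 6 ES libraries was left out.

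At day 4 the replicate numbers paired the libraries, with correlations of 0.637, 0.290 and 0.806 between same-numbered mutant and WT libraries. Without a block, 1 of 495 genes was called, against 0.0494% of all tested genes in either direction. It was Barx1, a homeobox gene of pharyngeal arch and stomach (chr13:48650490-48684673), whose start is the CG-richest of those printed above. Barx1 had 1.61, 1.59 and 1.84 RPKM in mutant and 0.48, 0.428 and 0.142 RPKM in WT embryoid bodies, a log2 fold change of 1.0 (SE 0.15, limma adjusted p = 0.0128). Its call was lost without WT library 2 or mutant library 2 or 3. Without WT library 3 the counts were 6 higher and 1 lower, and without mutant library 1 they were 2 and none.

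The block was not fitted to day 4 alone: each replicate number had 1 effect shared by all stages of both genotypes. Across stages, same-numbered WT day 8 and WT ES libraries correlated at -0.148, 0.0642 and -0.0462. With this replicate block 6 genes at peaks with Ring1B were higher at day 4 and none lower: Barx1, Calcoco2, Irx2, Pdgfa, Sfmbt2 and Tbx3. That is 1.21% of those tested, against 0.113% higher and 0.0705% lower of all 14180 tested genes in the same blocked fit. Tbx3, a T-box factor of pluripotency and primitive endoderm (chr5:119646891-119709344), had 4.25, 7.64 and 6.29 RPKM in mutant against 0.239, 0.181 and 0.748 RPKM in WT (blocked log2 fold change 2.34, SE 0.40, limma adjusted p = 0.0421, against 0.0646 without the block). Pdgfa had 5.75, 5.67 and 5.75 RPKM in mutant against 1.18, 1.23 and 2.89 RPKM in WT (1.34, SE 0.22, blocked limma adjusted p = 0.0403). Sfmbt2 had 5.06, 14.9 and 20.3 RPKM against 1.84, 1.12 and 4.27 RPKM (2.00, SE 0.34, blocked limma adjusted p = 0.0421). Mutant and WT libraries did not overlap for any of these 3. Pdgfa and Sfmbt2 are thus called at day 4 in the mutant, with the block, and with GSK343, in libraries of separate tables. Barx1 had 0.634 and 0.507 RPKM with GSK343 and 0.499 and 0.545 RPKM with DMSO at day 4, with the treatments overlapping. Endoderm markers summed to 11.3 to 33.3 RPKM in mutant and 7.70 to 9.49 RPKM in WT day 4 embryoid bodies. None of 12 was called in the fit without the block, and their calls in the blocked fit were not counted.

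At day 8, 9 of 495 genes were higher in the mutant (1.82%) and 1 lower (0.202%), against 1.3% and 0.212% of all tested genes, so the share at peaks with Ring1B lay close to that of all genes. Calcoco2 had 7.15, 6.70 and 7.38 RPKM in mutant and 0.23, 0.531 and 1.06 RPKM in WT day 8 embryoid bodies (log2 fold change 2.36, SE 0.35, limma adjusted p = 0.00582). It was also above WT in each mutant library of ES cells (11.2, 13.4 and 20.7 RPKM against 3.20, 4.03 and 3.23 RPKM, limma adjusted p = 0.0668). Without WT library 1 it was not called at day 8. Zic1, a zinc finger gene of neural crest and cerebellum (chr9:91342559-91423984), had 3.13, 1.26 and 0.883 RPKM in mutant against 0.0523, 0.0715 and 0.119 RPKM in WT (1.27, SE 0.28, limma adjusted p = 0.0416), and was called with 1 library left out only where that was WT library 3. Vax2 and Dmrt3 rose by 1.19 and 1.18, and Stk10, Ltk, Gm53, D230025D16Rik and Vax2os make up the rest. Without WT library 1 or WT library 2, Vax2, Dmrt3, Stk10 and Bhlhe41 were not called, and Stk10 and Bhlhe41 were not called without mutant library 2 or 3 either. When the fit held only the day 8 mutant and WT libraries, none of these genes was called. Reads of Vax2 and its antisense gene Vax2os cannot be told apart, since no source here says that strand was used in counting. The gene that fell in the mutant was Bhlhe41, a circadian bHLH repressor, by 1.14. Of the endoderm and pluripotency markers, 3 and 1 lay at peaks with Ring1B themselves. Endoderm markers stood higher in the mutant, 6 of 12 called, with sums of 90.6 to 449 RPKM against 21.4 to 149 RPKM in WT. So did pluripotency markers, 2 of 14, with sums of 655 to 1910 RPKM against 75.8 to 799 RPKM. Their part in the result was not tested.

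The day 8 result of the mutant turned on WT library 3. In Hand2 the mutant libraries had 57.5, 2.23 and 0.621 RPKM and the WT libraries 97.3, 80.7 and 0.089 RPKM. WT library 3 thus lay below every mutant library, and mutant library 1 lay nearest the other WT libraries. Otx2 showed the reverse order, with 18.4, 58.0 and 62.8 RPKM in mutant and 4.90, 4.63 and 68.3 RPKM in WT. Without WT library 3, 56 of 495 genes at peaks with Ring1B were lower (11.3%) and 29 higher (5.86%) in the mutant, against 3.41% and 5.82% of all tested genes. The lowest were Hba-x (-5.39), Hand2 (-3.73, SE 0.94, limma adjusted p = 0.0235), Nrp1 (-3.67) and Hand1 (-3.35), and the highest included Otx2 (2.86), Cenpv (2.66), Calcoco2 (2.56) and Foxd3 (2.14). Of these 56 genes 54 were also lower with GSK343 at day 8 and none was higher, where 38.3% of all tested genes at peaks with Ring1B were lower. The shared genes are 27.8% of the 194 GSK343 falls. This overlap was not counted for genes elsewhere, so it cannot be called particular to these peaks. The fit behind it kept the 2 WT libraries in which Hand2 was high. Without WT library 1 or library 2 the counts were 1 higher and none lower, and 3 higher and none lower. Without mutant library 1 they were 14 and 16, without mutant library 2 they were 6 and none, and without mutant library 3 they were 5 and none.

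The mutant effect at day 8 minus that at day 4 called none of 495 genes at peaks with Ring1B and 0.0% of all tested genes, with 22 and 370 at an unadjusted p under 0.05 (limma).

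After replating in ES medium, GSK343 given to DMSO-treated embryoid bodies called none of 517 genes at peaks with Ring1B and 0.0% of 14367 tested genes, with 13 and 328 at an unadjusted p under 0.05 (limma). The median log2 fold change was 0.01 at peaks with Ring1B and -0.23 over all tested genes, and 0.30 and 0.07 after each library was centred on its median. Feeder fibroblast markers summed to 2190 to 7180 RPKM with GSK343 and 1270 to 3970 RPKM with DMSO. Hand2 had 11.8, 14.9 and 10.5 RPKM with GSK343 and 4.20, 7.83 and 7.63 RPKM with DMSO, which do not overlap (log2 fold change 0.86, SE 0.55, limma adjusted p = 0.885). Pitx1 and Hoxb4 also lay apart, with differences of 1.25 and 1.20 at the same adjusted p. Otx2 had 0.193, 0.294 and 0 RPKM with GSK343 and 2.05, 1.25 and 0 RPKM with DMSO.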

How the data were processed

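The members and gene lists were chosen with earlier results of these data known. Peak positions are the authors' deposited starts and ends on mm10. The submitters' processing notes name Bowtie2 2.3.4.3 and HOMER 4.10.3 for CUT&RUN samples and STAR 2.5.3, featureCounts 1.6.1 and HOMER 4.10.3 for RNA samples, with no role. The authors' deposited RNA values are RPKM per library, per the file headers, so read depth is unknown.

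RPKM were tested as log2(RPKM + 1) with limma 3.58.1 (R 4.3.3, trended variance) on all groups of a table, with a filter of 0.5 RPKM and Benjamini-Hochberg adjustment over all tested genes at 0.05. Fold changes on this scale understate those of low genes. The fit was tested on simulated data first. Overlaps needed 1 bp, and genes were RefSeq spans within 1 kb of a peak (GRCm38.p6). Suz12 shares were compared over libraries by exact permutation. Named genes are, per comparison, the 5 largest rises and falls among called genes with a mean of at least 1 RPKM and groups apart, leaving out predicted, RIKEN, Mir and histone genes, with a fixed set of regulators and up to 4 genes of smallest p per list. Calls of 10 or fewer were all named, and Calcoco2, Cenpv, Mllt10, Zic1, Pdgfa, Sfmbt2, Tbx3, Irx2, Foxd3, Otx2 and Hand2 were followed into other comparisons, after their values were seen. Pairing was checked by correlating deviations of same-numbered libraries from their group means: every pair was above 0.1 for mutant and WT at day 4 and in no other comparison with 3 pairs. Alternatives included other filters, pseudocounts, gene assignments and overlaps, and leaving out single libraries. Replated cultures first given GSK343 were not compared here, but they entered the filter and the pooled spread of the replating fit. The mutant H3K27me3 list was not analysed here. Some genes that this rule names are not reported here.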

Additional observations from a re-analysis of the deposited data

Results flagged for a closer look

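The response of genes at peaks with Ring1B to GSK343 differed between stages when the difference itself was tested, with 144 genes more negative at day 8 than at day 4 and 24 more positive (limma interaction term, adjusted p under 0.05, 506 genes tested, 2 libraries in each of 4 groups). The term was added after the day 8 and day 4 results were seen. No group had enough libraries for a check of single outlying samples.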

How the results depend on the processing

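Of 31 named gene results, none changed direction over 314 alternatives, and 69 of these lost the call. The counts of genes at peaks with Ring1B moved as follows. With a gene start within 1 kb, mutant day 8 had 5 higher, GSK343 day 8 had 44 higher and 124 lower, and WT day 8 over ES cells had 83 higher and 28 lower, since fewer genes were assigned. When each fit held only the groups compared, mutant ES, day 4 and day 8 had 0 called, GSK343 day 4 had 9 higher and 1 lower, GSK343 day 8 had 40 higher, and WT day 8 had 64 higher and 19 lower; the cause was not tested. With a pseudocount of 0.1, mutant day 4 had 2 higher, mutant day 8 had 0 lower and GSK343 day 4 had 6 higher. Without a filter GSK343 day 4 had 1 lower, and with the authors' target calls mutant day 4 had 0 higher. Those calls cover only genes listed for the replated cells, where Barx1 has no value, so its loss does not mean that the authors left it out as a target. With a replicate block, mutant day 4 had 6 higher, mutant day 8 had 15 higher and 4 lower, and GSK343 day 4 had 19 higher and 2 lower. Same-numbered GSK343 and DMSO libraries correlated at 0.625 at day 4. For mutant and WT at day 8 the 3 pairs had 0.746, -0.259 and 0.635, so those libraries may share only a number. The block gave a Suz12 difference between mutant and WT of 6.37 points (exact permutation p = 0.75). Leaving out 1 library gave ranges of higher genes of 0 to 1 in mutant ES cells, 0 to 6 in mutant day 4, 1 to 29 in mutant day 8, 0 to 1 in GSK343 ES cells, 0 in GSK343 day 4, 43 to 68 in GSK343 day 8, 66 to 186 in WT day 8 and 7 to 40 for GSK343 day 8 minus day 4. The ranges of lower genes were 0 to 1 in mutant day 4, 0 to 56 in mutant day 8, 22 to 60 in WT day 8 and 0 to 3 for mutant day 8 minus day 4. The Suz12 difference between mutant and WT ran from -7.745 to 19.17 points, both ends without the WT library of a stage and so without that stage, and that between peaks with and without Ring1B from 27.92 to 35.56. A choice of top-scoring Suz12 peaks was not run because every deposited score is the same. RPKM and peak lists without depth limit what low genes and short lists can show.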
